A study of Mus musculus with 15 samples.

Results

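The cytochrome P450 families CYP1, CYP2 and CYP3 were followed in mouse liver tumours with and without Hmgb1 in the liver epithelium. The members were all genes of the count table whose symbol begins with Cyp1, Cyp2 or Cyp3 followed by a subfamily letter and a number, which gave 62 of 23284 genes. The Hmgb1-deleted group held 6 liver tumours from Hmgb1 fl/fl mice that express Albumin-Cre, a Cre recombinase driven by the albumin promoter, which acts in hepatocytes and bile duct cells and leaves Hmgb1 in the other cells of the organ. The floxed group held 6 liver tumours from Hmgb1 fl/fl mice, the genotype given for these controls. Both tumour groups had received the mutagen DEN (diethylnitrosamine; 25 mg/kg) at the age of 15 days, and CCl4 (carbon tetrachloride, a liver toxin) at 0.5 µl/g each week for 15 weeks from week 8. The normal group held 3 livers of C57Bl/6 control mice with no treatment named, so treatment, and possibly strain, cannot be told apart from tumour formation in comparisons with them. The sources used here do not give the age at collection or the litters.

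P450 enzymes of these families hold a haem group in the membrane of the endoplasmic reticulum and add an oxygen atom to drugs, toxins, steroids and fatty acids, with electrons passed on by P450 reductase. The liver is their main site. Many are made chiefly by the pericentral hepatocytes around the central vein, others differ between male and female mice under the control of growth hormone, and several are induced through the nuclear receptors CAR and PXR or the aryl hydrocarbon receptor. Cyp2e1 and Cyp2a5 are also known for their part in turning nitrosamines into DNA-damaging products, and Cyp2e1 for activating CCl4.

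Reads of such families are hard to place, because many members are recent copies of each other. The 250 bases upstream of the start of Cyp2a4 and Cyp2a5 show how close a pair can be, and Cyp2a4 differed widely between tumours. Capitals mark the bases that differ between the aligned windows of this pair, and every other aligned base is the same. Both windows lie on the plus strand, at chr7:26306942-26307191 and chr7:26835089-26835338 of the RefSeq assembly GRCm38.p6, which is not the mm9 build of the counts.
Cyp2a4: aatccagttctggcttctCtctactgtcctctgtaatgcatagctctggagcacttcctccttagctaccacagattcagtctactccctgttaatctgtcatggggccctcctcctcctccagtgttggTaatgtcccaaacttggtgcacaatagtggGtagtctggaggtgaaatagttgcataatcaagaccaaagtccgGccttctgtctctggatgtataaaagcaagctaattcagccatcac
Cyp2a5: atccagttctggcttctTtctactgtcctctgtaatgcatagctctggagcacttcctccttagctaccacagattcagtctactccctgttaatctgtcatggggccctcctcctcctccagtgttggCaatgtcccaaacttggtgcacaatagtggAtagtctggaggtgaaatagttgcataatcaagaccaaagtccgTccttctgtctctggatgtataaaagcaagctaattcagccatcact
The windows were 97.6% identical, with 245 identical bases, 4 mismatches and 2 gap positions in the alignment. Of all 50-base stretches in the annotated transcripts of Cyp2a4, 38.8% also occurred in another gene, and 37% of those of Cyp2a5.

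The next 3 windows belong to Cyp2c genes of chromosome 19 that were each higher in Hmgb1-deleted than in floxed tumours. They lie on the plus strand at chr19:39286835-39287084, chr19:39992174-39992423 and chr19:40089429-40089678 of GRCm38.p6. Capitals mark the letters TGNACTTTG, a core of the sequence that the hepatocyte factor HNF4A binds, read on either strand (here as its reverse complement).
Cyp2c29: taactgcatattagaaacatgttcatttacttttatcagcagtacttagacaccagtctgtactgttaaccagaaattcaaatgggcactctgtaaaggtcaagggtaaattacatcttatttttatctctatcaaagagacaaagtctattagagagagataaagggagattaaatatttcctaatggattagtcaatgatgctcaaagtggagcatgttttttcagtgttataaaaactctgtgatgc
Cyp2c37: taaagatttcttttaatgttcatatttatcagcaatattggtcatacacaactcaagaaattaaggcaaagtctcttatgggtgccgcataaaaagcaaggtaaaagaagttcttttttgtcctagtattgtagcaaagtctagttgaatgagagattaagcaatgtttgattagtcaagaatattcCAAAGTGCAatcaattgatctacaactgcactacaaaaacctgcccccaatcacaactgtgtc
Cyp2c50: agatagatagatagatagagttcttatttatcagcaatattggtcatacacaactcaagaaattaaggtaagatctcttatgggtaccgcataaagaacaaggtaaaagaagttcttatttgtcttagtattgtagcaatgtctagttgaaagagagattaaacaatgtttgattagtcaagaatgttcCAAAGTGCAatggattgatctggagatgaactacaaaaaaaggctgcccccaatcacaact
The letters began 63 bases before the start in Cyp2c37 and 61 bases before it in Cyp2c50, and those letters were not in the Cyp2c29 window. The Cyp2c37 and Cyp2c50 windows were 84.3% identical, and Cyp2c29 was 54.5% identical to Cyp2c37. Over the families, 14 of the 52 members with a RefSeq window held these letters, against 1.19% of all 32851 promoter windows of that length, and related members share them by descent. Of these 14, only Cyp2c37 and Cyp2c50 were higher in Hmgb1-deleted than in floxed tumours by the edgeR test used below. Others, such as Cyp2c67, Cyp2c70 and Cyp2d26, did not pass it. The letters TATAAA, read on the gene's strand, were in 19 of 52 member windows and in 7.59% of all windows. A match is a description of the letters only.

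Library totals ran from 18973246 to 30929442 counts, and 3 counts, the limit that 0 counts allow, stood for 0.11 to 0.169 CPM (counts relative to the library total, adjusted with TMM factors). These limits cover counting error only. The labels do not tie tumours to litters or batches, so the spread behind each p-value is that of these samples and may in part be technical. Hmgb1 was lower in each Hmgb1-deleted tumour than in any floxed tumour, with a mean log2(CPM + 1) difference of -0.89 (two-sided exact permutation test, p = 0.00216, the smallest it can give). On a principal component analysis of all genes, Hmgb1-deleted tumours 3, 4 and 6 lay nearest to the normal livers, at 21, 26.4 and 9.6 on the first component against 109.2 to 109.6 in normal livers and -61.9 to -43 in floxed tumours. On the second component, tumours 2 and 5 of that group were separate from the rest, at -76.5 and -82.7. Member counts are therefore also given without tumours 3, 4 and 6 and without tumours 2 and 5.

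**Figure D1:**
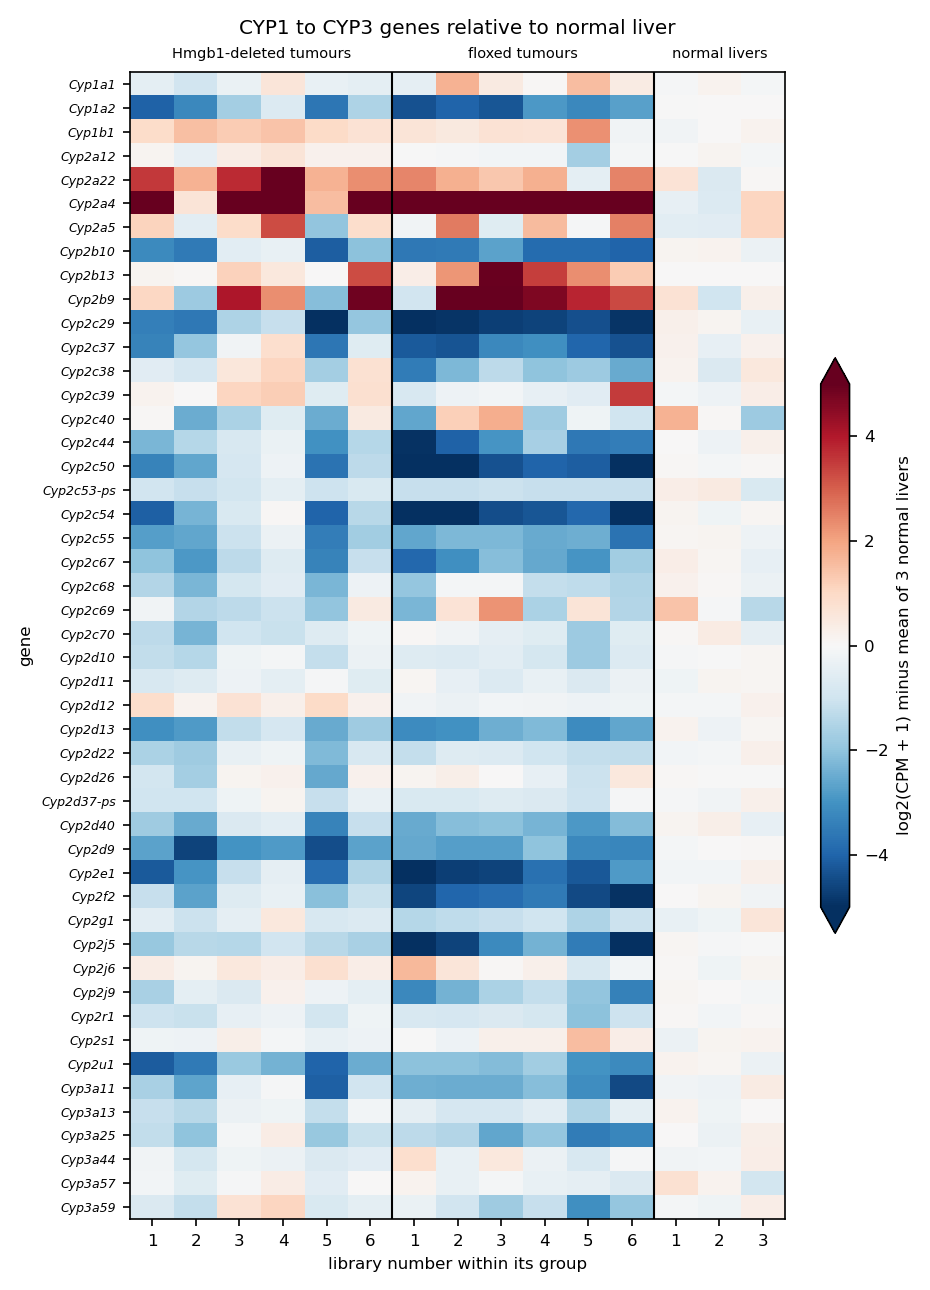
Heat map of the 48 members tested in at least 1 comparison (down the page) in each library (across, numbered within its group). Colour is the log2(CPM + 1) of a library minus the mean of the 3 normal livers, cut at 5 in either direction. Most members are blue in the floxed tumours. Cyp2a4 is at the red end of the scale in all tumours except Hmgb1-deleted tumours 2 and 5, which are a paler red.

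The first comparison asks how the P450 programme of the tumours differs when the liver epithelium lacks Hmgb1. Of the 46 members tested, 9 were higher in Hmgb1-deleted than in floxed tumours, none was lower and 37 did not pass (quasi-likelihood test of edgeR, with p adjusted by Benjamini-Hochberg over all genes and a threshold of 0.05). The 9 are 19.6% of the members tested, where 7.78% of all 13433 genes were called in either direction, 4.45% higher and 3.33% lower. At an unadjusted p under 0.05 with edgeR, 19 members were higher and 2 lower, and the share of all genes at that threshold was not counted. DESeq2 called 17 members higher and 1 lower, beside 979 higher and 975 lower of all 13433 genes. The median log2 fold change of the members was 0.40, against 0.02 for all genes. The genes called were Cyp2c29, Cyp2c37, Cyp2c38, Cyp2c50 and Cyp2c54 of the 13 Cyp2c genes tested, Cyp2j5 and Cyp2j9 of 3 Cyp2j genes, and the single genes Cyp2f2 and Cyp2g1. With edgeR none of the 4 Cyp2a, 3 Cyp2b, 8 Cyp2d and 6 Cyp3a genes tested was called, while DESeq2 called Cyp2a22, Cyp2b10, Cyp3a11, Cyp3a25 and Cyp3a59 higher. In bulk RNA, fewer cells of a type and less RNA per cell cannot be told apart.

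The Cyp2c enzymes of mice turn arachidonic acid and other polyunsaturated fatty acids into epoxides and hydroxylated products, beside their work on drugs. Cyp2c29, an epoxygenase and CAR target, had a lowest, median and highest level of 55.7, 390.3 and 986 CPM in Hmgb1-deleted tumours and 28.9, 79.1 and 105 CPM in floxed tumours, and stood at 2639, 2414 and 1714 CPM in normal livers. Tumours 3, 4 and 6 were the highest of the Hmgb1-deleted group, tumour 5 fell among the floxed tumours, and every tumour lay below every normal liver. Its log2 fold change was 2.61 ± 0.59 (SE; adjusted p = 0.0192), or 6.12-fold.

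Cyp2c50, whose product acts on linoleic and arachidonic acid, was at 77.7, 288 and 843 CPM in Hmgb1-deleted tumours, 16.1, 40.4 and 62.1 CPM in floxed tumours and 1053, 942 and 1061 CPM in normal livers (lowest, median and highest for tumours). The lowest Hmgb1-deleted tumour lay above the highest floxed tumour, and no tumour reached the normal livers. The log2 fold change was 3.20 ± 0.61 (adjusted p = 0.00971). Its near copies Cyp2c37 and Cyp2c54 also had tumours 4, 3 and 6 as the highest of the Hmgb1-deleted group, in that order. Cyp2c37 was at 22.7, 132 and 509 CPM in Hmgb1-deleted tumours, 13.0, 16.0 and 33.9 CPM in floxed tumours and 329, 216 and 334 CPM in normal livers, and Cyp2c54 at 24.6, 127 and 459 CPM in Hmgb1-deleted tumours, 3.23, 14.7 and 27.5 CPM in floxed tumours and 475, 372 and 472 CPM in normal livers. For both genes, Hmgb1-deleted tumours 1 and 5 lay among the floxed tumours. Tumour 4 lay above all normal livers for Cyp2c37 and inside their range for Cyp2c54. Their log2 fold changes were 3.15 ± 0.70 (adjusted p = 0.0184) and 3.53 ± 0.76 (adjusted p = 0.0159). Of the 50-base stretches of Cyp2c37, Cyp2c54 and Cyp2c50 transcripts, 30.1%, 25.7% and 18.3% occurred in another gene, so part of what is counted for these 3 may come from each other.

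Cyp2c38, another arachidonic acid epoxygenase, was at 6.86, 26.9 and 53.2 CPM in Hmgb1-deleted tumours, 1.24, 4.83 and 9.42 CPM in floxed tumours and 27.6, 14.7 and 36.2 CPM in normal livers. Only Hmgb1-deleted tumour 5 fell within the floxed range, and tumours 3, 4 and 6 lay above all normal livers, the highest of which had 36.2 CPM. Hmgb1-deleted over floxed tumours gave 2.51 ± 0.53 on the log2 scale (adjusted p = 0.0149). It shared 7.45% of its 50-base stretches with another gene, and Cyp2c29 shared 4.25%.

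Cyp2f2, known for activating naphthalene in the airway and made in the liver by periportal hepatocytes, had the smallest p of the families in this comparison. It was at 243, 715 and 1196 CPM in Hmgb1-deleted tumours, 49.9, 83.5 and 135 CPM in floxed tumours and 1584, 1732 and 1389 CPM in normal livers. The tumour groups did not overlap: the lowest Hmgb1-deleted tumour was tumour 2 and the highest floxed tumour was tumour 4, and both groups lay below the normal livers. The log2 fold change was 3.03 ± 0.40, or 8.16-fold (adjusted p = 0.0017), and it was the only one of the 9 that kept its call without tumours 3, 4 and 6, at 2.31 (adjusted p = 0.0104).

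The Cyp2j genes encode epoxygenases found in liver, kidney and other organs. Cyp2j5, which is higher in male than in female mice, was at 230.1, 322 and 437 CPM in Hmgb1-deleted tumours, 14.2, 54.8 and 166 CPM in floxed tumours and 910.4, 821 and 850.5 CPM in normal livers. All Hmgb1-deleted tumours lay above all floxed tumours and below all normal livers, and they were closer together than for any Cyp2c gene above. This came to 2.28 ± 0.53 on the log2 scale (adjusted p = 0.0212), and without Hmgb1-deleted tumour 4 the call was missed at an adjusted p of 0.0507. Cyp2j9 was at 4.54, 11.2 and 19.0 CPM in Hmgb1-deleted tumours, 0.636, 2.85 and 6.44 CPM in floxed tumours and 17.5, 16.3 and 14.9 CPM in normal livers. Hmgb1-deleted tumour 1 lay among the floxed tumours and tumour 4 above the normal livers. Its log2 fold change of 1.93 ± 0.51 (adjusted p = 0.0383) lost its call in 9 of the 12 fits that left out a library, up to an adjusted p of 0.0945. Cyp2j6 was at 104, 119 and 164 CPM in Hmgb1-deleted tumours, 53.1, 104 and 288 CPM in floxed tumours and 98.7, 80.7 and 103 CPM in normal livers and did not pass the test (log2 fold change of 0, rounded to 2 decimals, with an SE of 0.32; adjusted p = 0.998).

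Cyp2g1, best known from the olfactory mucosa, was low in every library. It was at 0.52, 1.13 and 3.66 CPM in Hmgb1-deleted tumours, 0.118, 0.386 and 0.606 CPM in floxed tumours and 1.46, 1.79 and 3.84 CPM in normal livers, and the groups overlapped through Hmgb1-deleted tumour 2. On the log2 scale the difference was 1.95 ± 0.50 (adjusted p = 0.033), and 6 of the 12 fits without a library lost the call, up to an adjusted p of 0.0743. The libraries whose removal ended it were floxed tumours 1, 2, 3 and 5 and Hmgb1-deleted tumours 3 and 4. For Cyp2j9 they were floxed tumours 1, 2, 3 and 5 and every Hmgb1-deleted tumour except 1.

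**Figure D2:**
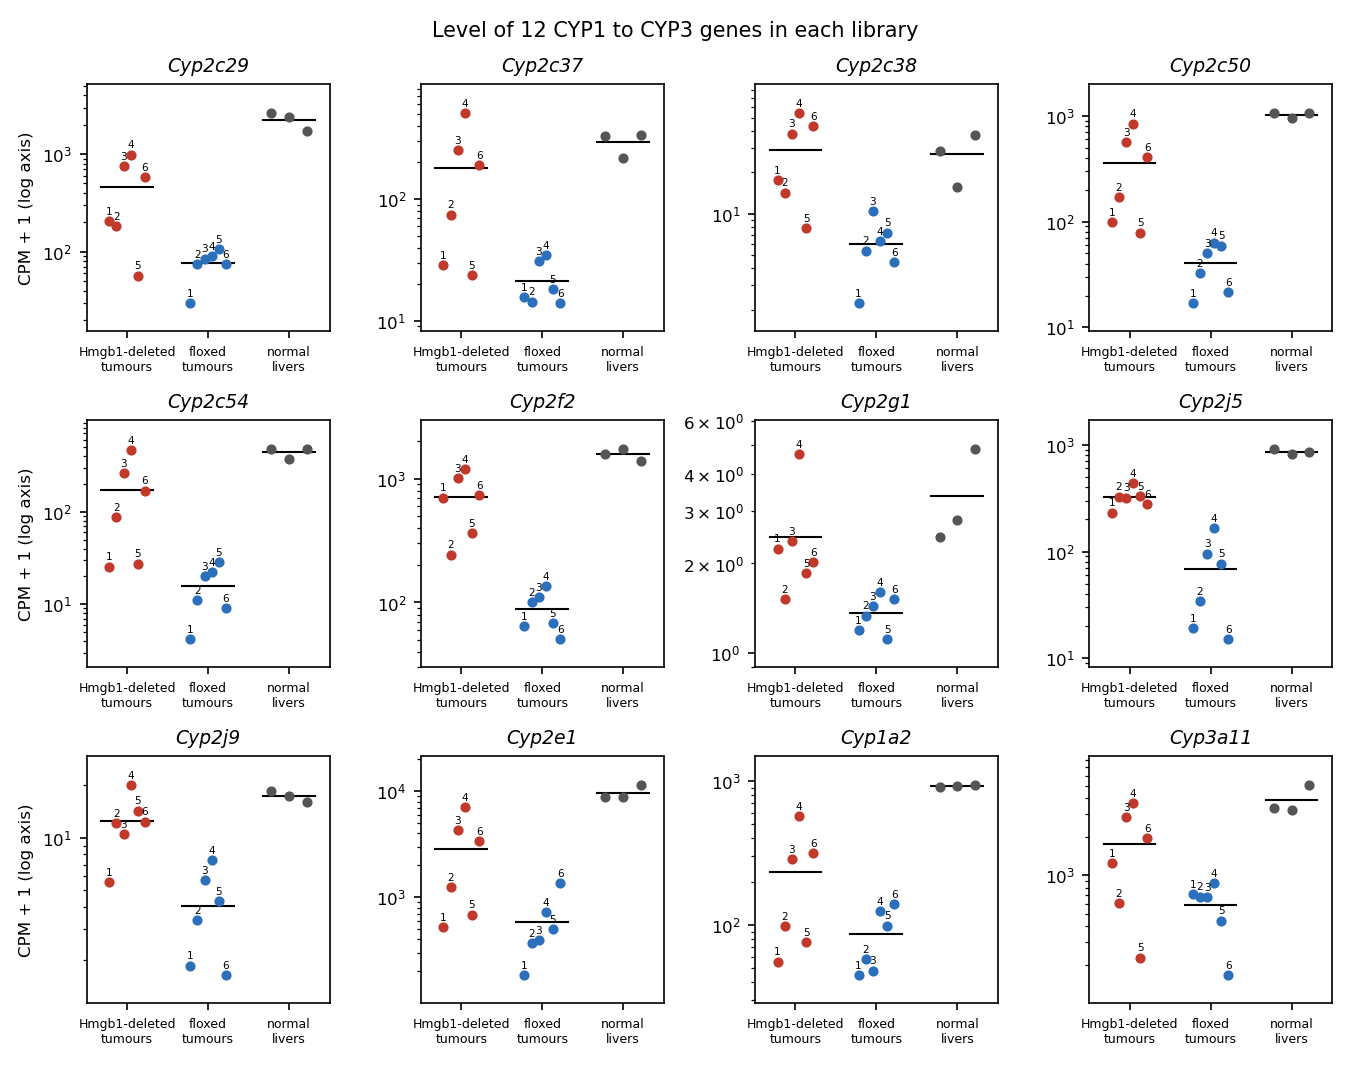
Level of the 9 members called higher in Hmgb1-deleted tumours, and of Cyp2e1, Cyp1a2 and Cyp3a11, as CPM + 1 on a log axis, with 1 point per library (tumours numbered) and a bar at the mean. Hmgb1-deleted tumours 3, 4 and 6 are the highest tumours for most of these genes, and the groups of tumours do not overlap for Cyp2c50, Cyp2f2 and Cyp2j5.

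Among the abundant members, Cyp2e1 and Cyp3a11 did not pass with edgeR and were called higher with DESeq2. Cyp2e1, the ethanol- and CCl4-metabolising enzyme of pericentral hepatocytes, was at 519, 2329 and 7049 CPM in Hmgb1-deleted tumours, 185, 448 and 1358 CPM in floxed tumours and 8853, 8772 and 11468 CPM in normal livers. Hmgb1-deleted tumours 3, 4 and 6 had 4277, 7049 and 3402 CPM and lay above every floxed tumour, while tumours 1, 2 and 5 lay within the floxed range. The log2 fold change of 2.29 ± 0.67 missed the threshold with edgeR (adjusted p = 0.054), and DESeq2 gave 2.27 (adjusted p = 0.00243). Cyp3a11, the main PXR-induced drug oxidase of mouse liver, was at 227, 1606 and 3678 CPM in Hmgb1-deleted tumours, 166, 681 and 869 CPM in floxed tumours and 3391, 3232 and 5086 CPM in normal livers, with a log2 fold change of 1.59 ± 0.58 with edgeR (adjusted p = 0.111) and 1.57 with DESeq2 (adjusted p = 0.0287). Hmgb1-deleted tumours 2 and 5 fell below the floxed median there.

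Of the CYP1 family, Cyp1a2, which oxidises caffeine and aromatic amines, was at 54.6, 191 and 568 CPM in Hmgb1-deleted tumours, 44.1, 77.5 and 139 CPM in floxed tumours and 903, 923 and 939 CPM in normal livers. The tumour groups overlapped and the log2 fold change was 1.46 ± 0.55 (adjusted p = 0.123). Cyp1a1, the classical target of the aryl hydrocarbon receptor, was low in all groups, at 0.186, 0.721 and 2.53 CPM in Hmgb1-deleted tumours, 0.696, 2.12 and 6.80 CPM in floxed tumours and 1.22, 1.59 and 1.18 CPM in normal livers. It was the member nearest to a lower call in Hmgb1-deleted tumours, at -1.75 ± 0.62 with edgeR (adjusted p = 0.107) and -1.77 with DESeq2 (adjusted p = 0.0328). Cyp1b1, which is made mostly by cells other than hepatocytes, was at 2.05, 3.06 and 4.27 CPM in Hmgb1-deleted tumours, 0.676, 1.96 and 8.15 CPM in floxed tumours and 0.65, 0.896 and 1.08 CPM in normal livers, and floxed tumour 5 was its highest library. Cyp2s1, which is found mainly in other epithelia, was at 0.373, 0.502 and 1.17 CPM in Hmgb1-deleted tumours, 0.506, 1.11 and 4.11 CPM in floxed tumours and 0.447, 0.937 and 0.985 CPM in normal livers, with floxed tumour 5 again the highest, and a log2 fold change of -1.25 ± 0.49 (adjusted p = 0.135).

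Cyp2d12 lay below the filter on low counts in this comparison and so had no test in it. Its counts came to 132 over the Hmgb1-deleted tumours, 15 over the floxed tumours and 20 over the normal livers, and its levels were 0.446, 0.827 and 1.49 CPM in Hmgb1-deleted tumours, 0.0562, 0.125 and 0.163 CPM in floxed tumours and 0.203, 0.204 and 0.492 CPM in normal livers. The tumour groups did not overlap. With no filter the log2 fold change was 2.91 ± 0.46 (adjusted p = 0.00526), and this gene was singled out after its values were seen. The pseudogene Cyp2c53-ps was the other member called only with no filter (higher, adjusted p = 0.0439), on 27 counts over the Hmgb1-deleted tumours and 1 count over the floxed tumours.

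The Hmgb1-deleted tumours differed widely among themselves. Tumour 4 was the highest of its group for 30 of the 46 members tested and tumour 6 for 10, while tumour 5 was the lowest for 19 and tumour 2 for 18. How often each tumour was highest or lowest over all genes tested was not counted. Of the 9 members called, tumours 3, 4 and 6 lay above every floxed tumour for all 9, tumour 2 for 8, tumour 1 for 6 and tumour 5 for 5. The 9 were picked by the test between these same tumours, which favours such an order. The same count over all genes called was not made. At or above the lowest normal liver were 5 of the 9 in tumour 4, 2 in tumour 3, 1 each in tumours 1 and 6, and none in tumours 2 and 5. In the floxed group no tumour stood at the top so often, with at most 11 members (tumour 4), and tumours 1 and 5 were each the lowest for 16.

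Without Hmgb1-deleted tumours 3, 4 and 6, 5 members were called, 2 higher and 3 lower, beside 808 of 13925 genes over the whole table, 344 higher and 464 lower. The higher were Cyp2f2 and Cyp2d12, which then passed the filter, and the lower were Cyp2b13 at -7.22, Cyp2u1 at -2.38 and Cyp2d22 at -0.86 (adjusted p = 0.0414, 0.0264 and 0.0411). The other 8 genes kept positive log2 fold changes, from 0.96 for Cyp2c29 to 2.13 for Cyp2j5, and missed the threshold. Without tumours 2 and 5, 15 members were called and all were higher, beside 1082 of 13610.0 genes, 639 higher and 443 lower. Among the 15 were Cyp2e1 at 2.67 (adjusted p = 0.0292), Cyp3a11 at 2.03 (adjusted p = 0.0155) and Cyp2b10 at 3.71 (adjusted p = 0.0219).

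Summed over the families, member reads took 0.604% to 2.8% of counts in Hmgb1-deleted tumours, 0.584% to 1.63% in floxed tumours and 2.49% to 2.77% in normal livers. In the floxed tumours, much of that sum was Cyp2a4 and Cyp2a5, which together made 2.46% to 34.6% of member reads in Hmgb1-deleted tumours, 14.3% to 72.8% in floxed tumours and 0.897% to 2.42% in normal livers. Without this pair, the other members took 0.589% to 2.16% of counts in Hmgb1-deleted tumours, 0.399% to 0.603% in floxed tumours and 2.46% to 2.7% in normal livers. By this share of counts, Hmgb1-deleted tumour 5 lay inside the floxed range, and the other 5 Hmgb1-deleted tumours lay above it. In CPM, which adds the TMM factors, Hmgb1-deleted tumour 2 also lay inside it, at 5168 CPM against 3156 to 5788 CPM. The pair was set aside after its levels were seen.

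The comparison of floxed tumours with normal livers asks how the families differ in chemically induced tumours with intact Hmgb1. Of 46 members tested, 27 were lower in floxed tumours, 4 were higher and 15 did not pass (edgeR). Over all 13784 genes tested, 48.7% were called, 23.8% lower and 24.9% higher. The median log2 fold change was -1.03 for the members and 0.06 for all genes. All 9 genes that were higher in Hmgb1-deleted than in floxed tumours were among the 27, and both comparisons share the floxed tumours. The same overlap over the whole table was not counted.

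Among the members that passed the filter on low counts, the deepest falls were in Cyp2b10, Cyp2c29 and Cyp2c54. The pseudogene Cyp2c53-ps, called lower only with no filter (adjusted p = 0.00011), had 1 count over the floxed tumours and 99 over the normal livers. Cyp2b10, the standard readout of CAR, was at 0, 2.04 and 12.5 CPM in Hmgb1-deleted tumours, 0.0795, 0.332 and 1.74 CPM in floxed tumours and 18.2, 18.3 and 13.0 CPM in normal livers. In the Hmgb1-deleted group, tumours 3 and 4 had 11.1 and 12.5 CPM and tumour 6 had 3.20 CPM, while tumours 1, 2 and 5 were under 1 CPM. The fall in floxed tumours was -5.01 ± 0.63 on the log2 scale (adjusted p = 0.000148). Cyp2c29 fell by 4.88 and Cyp2c54 by 4.87 on the log2 scale, with no overlap between floxed tumours and normal livers. Cyp2c50 at -4.68, Cyp2f2 at -4.16, Cyp2e1 at -4.03, Cyp2c37 at -3.84, Cyp2j5 at -3.67 and Cyp1a2 at -3.43 came next. Cyp3a11 fell by 2.72.

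Falls were shallower in other genes. Cyp2r1, which carries out the first hydroxylation of vitamin D, was at 10.7, 15.1 and 20.4 CPM in Hmgb1-deleted tumours, 5.06, 12.8 and 14.0 CPM in floxed tumours and 25.3, 21.9 and 24.8 CPM in normal livers. It lay below the normal livers in every floxed tumour, at -1.06 ± 0.25 (adjusted p = 0.00634), and did not pass in Hmgb1-deleted tumours against normal livers, at -0.62 ± 0.22 (adjusted p = 0.0527). The Cyp2d genes Cyp2d10 and Cyp2d22 fell by 0.83 and 0.99 in floxed tumours, and the pseudogene Cyp2d37-ps by 0.65. Cyp3a13 fell by 0.75 and Cyp3a59 by 1.38. The calls of Cyp2d10 and Cyp2d37-ps ended without normal liver 3, that of Cyp3a13 without normal liver 1, and that of Cyp3a59 without floxed tumour 3 or without any single normal liver.

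Some abundant members passed in no comparison. Cyp2a12, which hydroxylates bile acids, was at 526, 807 and 1099.8 CPM in Hmgb1-deleted tumours, 216, 648 and 693 CPM in floxed tumours and 678, 761 and 653 CPM in normal livers, and only floxed tumour 5 stood apart. Cyp2d26 was at 138, 652 and 945 CPM in Hmgb1-deleted tumours, 381, 854 and 1161 CPM in floxed tumours and 835, 799 and 795 CPM in normal livers, with Hmgb1-deleted tumours 1, 2 and 5 below the normal livers. Cyp2c70, the enzyme that makes muricholic acids in mice, was at 111, 273 and 488 CPM in Hmgb1-deleted tumours, 159, 395 and 585 CPM in floxed tumours and 584, 747 and 419.8 CPM in normal livers. Cyp2c70 in Hmgb1-deleted tumours against normal livers was at -0.99 ± 0.38 (adjusted p = 0.066).

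**Figure D3:**
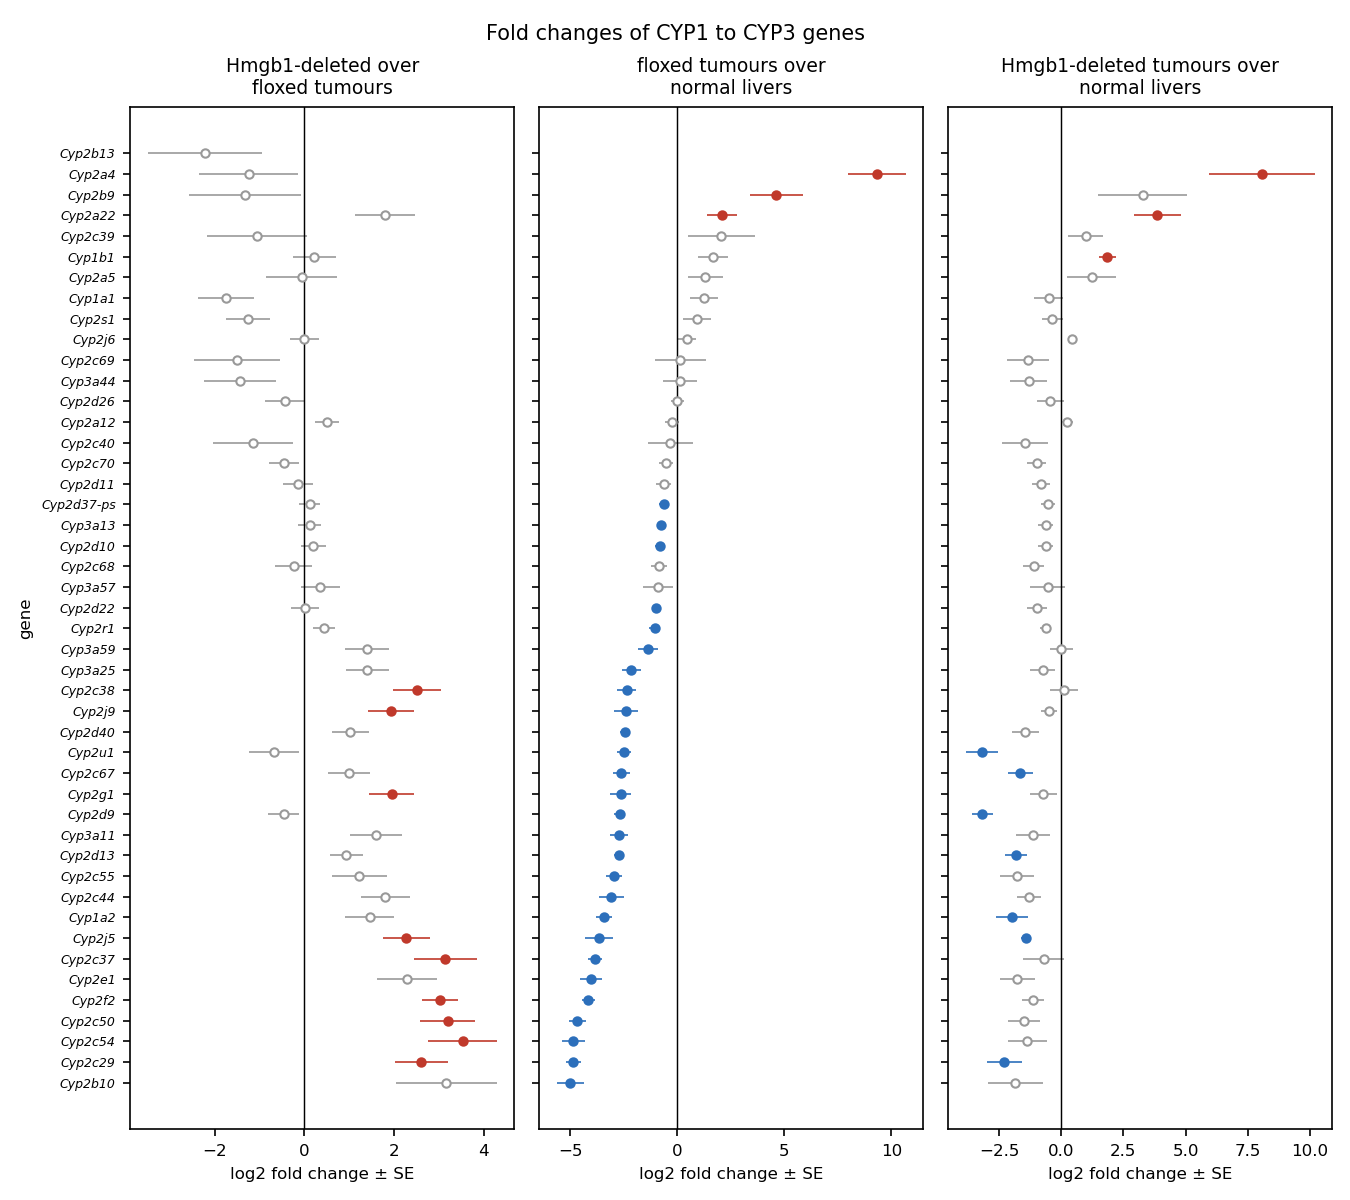
Log2 fold change ± SE in the 3 comparisons of each member tested in floxed tumours over normal livers, ordered by that comparison. Filled red is higher, filled blue is lower and open grey did not pass. Cyp2c53-ps (lower) and Cyp2d12 (did not pass), tested only in Hmgb1-deleted tumours over normal livers, are not drawn. Cyp2b13 has no point against normal livers, which had 0 counts; 9 members are red in the first panel, all of which are blue in the middle panel.

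Against this general fall, Cyp2a4, Cyp2a22, Cyp2b9 and Cyp2b13 were higher in floxed tumours than in normal livers. Cyp2a4, a testosterone 15-alpha-hydroxylase that is higher in female mice, had 2517, 11.2, 3570.4, 3096, 21.5 and 3604 CPM in Hmgb1-deleted tumours 1 to 6. In floxed tumours 1 to 6 it had 535, 9428, 2479.7, 3178, 2239 and 12550.3 CPM, and in normal livers 4.92, 3.87 and 15.4 CPM. Hmgb1-deleted tumours 2 and 5 stood at or near the normal level, and the other 4 Hmgb1-deleted tumours lay inside the floxed range. The log2 fold change was 9.31 ± 1.35 for floxed tumours over normal livers (adjusted p = 0.00038), and -1.24 ± 1.11 for Hmgb1-deleted over floxed tumours (adjusted p = 0.536).

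Its near copy Cyp2a5, the coumarin hydroxylase, did not pass in any comparison. It was at 88.8, 661 and 3427 CPM in Hmgb1-deleted tumours, 232, 698 and 2126 CPM in floxed tumours and 248, 237 and 750.0 CPM in normal livers. Hmgb1-deleted tumour 4 and floxed tumours 2 and 6 were high, and the third normal liver was higher than the other normal livers. Cyp2a22, which shares 20.2% of its 50-base stretches with another gene, was at 9.36, 25.1 and 102 CPM in Hmgb1-deleted tumours, 1.21, 9.87 and 16.8 CPM in floxed tumours and 4.02, 0.896 and 2.27 CPM in normal livers. Its rise of 2.08 ± 0.72 in floxed tumours (adjusted p = 0.0359) ended without floxed tumour 1, 2, 4 or 6 and without normal liver 2 or 3, up to an adjusted p of 0.126.

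Cyp2b9 and Cyp2b13 are steroid hydroxylases that adult male livers hardly make. Cyp2b9 was at 0.0746, 15.5 and 137 CPM in Hmgb1-deleted tumours, 1.39, 90.7 and 217 CPM in floxed tumours and 6.70, 1.38 and 4.63 CPM in normal livers. Floxed tumours 2 to 6 lay far above the normal livers and floxed tumour 1 did not, and in the Hmgb1-deleted group tumours 3, 4 and 6 were high and tumours 2 and 5 below all normal livers. The rise in floxed tumours was 4.61 ± 1.24 (adjusted p = 0.0117), and it missed the threshold without normal liver 2 (adjusted p = 0.0515). Cyp2b13 was at 0, 0.27 and 8.53 CPM in Hmgb1-deleted tumours and 0.248, 3.84 and 29.4 CPM in floxed tumours (lowest, median, highest), and had 0 counts in the normal livers. Its mean was at least 188-fold higher in floxed tumours than in normal livers, taken at the limit that 0 counts allow (3 counts over the group; adjusted p = 0.0107). That mean was raised by floxed tumour 3, at 29.4 CPM. Of the 50-base stretches of Cyp2b13, 27.3% occurred in another gene, and 11.2% of those of Cyp2b9. Part of what is counted for Cyp2b13 may therefore come from other genes.

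**Figure D4:**
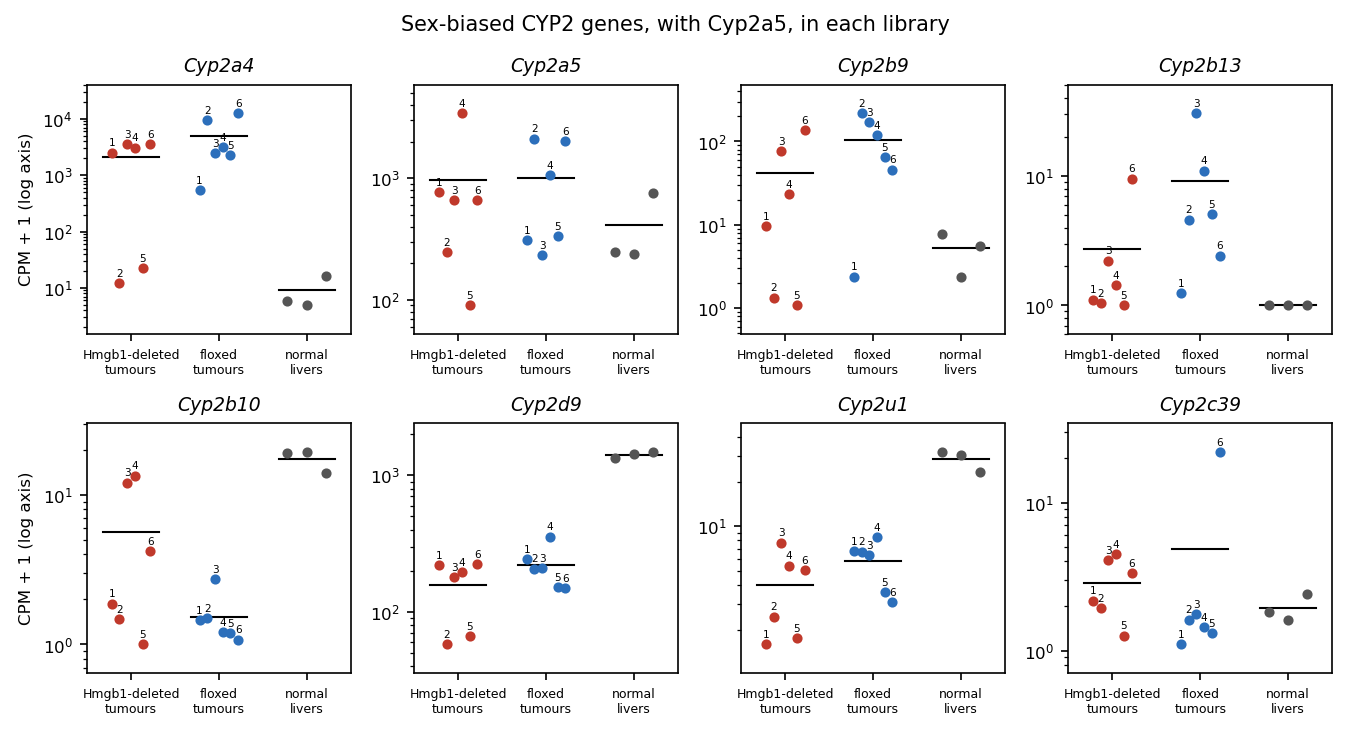
Level of sex-biased CYP2 members and Cyp2a5 as CPM + 1 on a log axis, with 1 point per library (tumours numbered) and a bar at the mean. Cyp2a4 is at 11.2 and 21.5 CPM in Hmgb1-deleted tumours 2 and 5, and Cyp2d9 and Cyp2u1 are below the normal livers in all tumours.

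Among the 11 members listed as higher in female mice, 8 were tested in Hmgb1-deleted against floxed tumours and none was called (edgeR; 1 higher and none lower at an unadjusted p under 0.05, and 1 higher with DESeq2). In floxed tumours against normal livers, 3 were higher (Cyp2a4, Cyp2b9 and Cyp2b13), 1 was lower (Cyp2b10) and 4 did not pass. The 4 were Cyp2c39, Cyp2c40, Cyp2c69 and Cyp3a44. Cyp2c39, a retinoic acid hydroxylase, was at 0.261, 1.75 and 3.50 CPM in Hmgb1-deleted tumours, 0.0994, 0.525 and 20.8 CPM in floxed tumours and 0.812, 0.611 and 1.43 CPM in normal livers, and floxed tumour 6 alone was high in its group. Cyp2c40 was at 0.892, 4.34 and 13.5 CPM in Hmgb1-deleted tumours, 0.745, 6.32 and 36.8 CPM in floxed tumours and 35.0, 10.3 and 2.02 CPM in normal livers, with a wide spread in each group, and Cyp2c69, with which it shares much of its sequence, at 0.485, 1.55 and 6.85 CPM in Hmgb1-deleted tumours, 0.199, 4.53 and 26.8 CPM in floxed tumours and 14.7, 4.52 and 1.23 CPM in normal livers. Normal liver 1 was the highest normal liver for both. Cyp3a44 was at 0, 0.365 and 0.622 CPM in Hmgb1-deleted tumours, 0.0392, 0.616 and 2.29 CPM in floxed tumours and 0.609, 0.652 and 1.28 CPM in normal livers.

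The remaining female-biased genes of the Cyp3a cluster were at or near the counting limit. Cyp3a16 reached 2.56 CPM in Hmgb1-deleted tumour 1 and at most 0.845 CPM in floxed tumours, with 0 counts in normal livers. Cyp3a41a had 0.549 CPM in Hmgb1-deleted tumour 1, 0 in the other 5, at most 0.327 CPM in floxed tumours and 0 in normal livers. Its copy Cyp3a41b had 0 counts in all libraries, and 98.6% of the 50-base stretches of Cyp3a41a occur in another gene. With no filter on low counts, Cyp3a16 and Cyp3a41a were called higher in floxed tumours than in normal livers (adjusted p = 0.0344 and 0.0498), beside the 3 female-biased genes named above.

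The male-biased members were Cyp2d9, Cyp2j5 and Cyp2u1, and all 3 were lower than in normal livers in floxed tumours and in Hmgb1-deleted tumours. Cyp2d9, a testosterone 16-alpha-hydroxylase that growth hormone keeps high in males, was at 56.6, 187 and 222 CPM in Hmgb1-deleted tumours, 148, 206 and 354 CPM in floxed tumours and 1333, 1429 and 1473 CPM in normal livers. All tumours lay well below the normal livers, with Hmgb1-deleted tumours 2 and 5 the lowest. Its log2 fold change was -3.17 ± 0.43 in Hmgb1-deleted tumours (adjusted p = 0.00157) and -2.69 ± 0.26 in floxed tumours (adjusted p = 3.3e-05), each over normal livers. Cyp2u1, a fatty acid hydroxylase, was at 0.585, 2.75 and 6.75 CPM in Hmgb1-deleted tumours, 2.07, 5.53 and 7.44 CPM in floxed tumours and 30.5, 29.4 and 22.2 CPM in normal livers, and fell by 3.20 in Hmgb1-deleted and by 2.50 in floxed tumours. All 15 libraries had RNA of the Y-linked gene Ddx3y, at 55.1 to 98.5 CPM, and the X-inactivation RNA Xist stayed under 1 CPM in all of them, so the sex-biased levels were measured among male samples by these markers. Stat5b, which carries the growth hormone signal, was lower than in normal livers in both tumour groups, at -1.37 ± 0.13 and -1.38 ± 0.14. Cux2, a factor of the female pattern, was higher in floxed tumours than in normal livers at 4.40 ± 1.27 (adjusted p = 0.0159), and did not pass in Hmgb1-deleted tumours at 2.78 ± 1.01 (adjusted p = 0.0568). Trim24 was lower in Hmgb1-deleted than in floxed tumours by 0.74 ± 0.18 (adjusted p = 0.0255), a call that ended without floxed tumour 2.

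In Hmgb1-deleted tumours against normal livers, fewer members passed. Of 47 tested, 8 were lower, 3 were higher and 36 did not pass (edgeR), where 34.7% of all 13784 genes were called, 16.6% lower and 18.1% higher. The median was -0.80 for the members and 0.05 for all genes. The lower members were Cyp1a2, Cyp2c29, Cyp2c53-ps, Cyp2c67, Cyp2d9, Cyp2d13, Cyp2j5 and Cyp2u1, and the higher members Cyp1b1, Cyp2a4 and Cyp2a22. The spread among the Hmgb1-deleted tumours enters this test, so a member that did not pass is not shown to be at the normal level. For some of these members, such as Cyp2e1 and Cyp2f2, every Hmgb1-deleted tumour lay below every normal liver. For others, such as Cyp3a11, the groups overlapped. How often either was seen over all genes was not counted.

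Of the 27 members that were lower in floxed tumours than in normal livers, 7 were also lower in Hmgb1-deleted tumours and 20 did not pass there. How the genes of the whole table divided in this way was not counted. Without Hmgb1-deleted tumours 3, 4 and 6, 32 members were called against normal livers, 28 lower and 4 higher, and calls over the whole table also rose in number, to 6462 of 13534 genes, against 4787 of 13784 with all 6 tumours. Tumours 3, 4 and 6 were singled out as those nearest to the normal livers on the first principal component. Leaving them out therefore favours calls against normal livers. Among the members then lower were Cyp2e1 at -3.52, Cyp2c50 at -3.10 and Cyp3a11 at -2.45. With normal liver 1, 2 or 3 left out, 5, 5 and 6 members were called. Calls over the whole table fell too, to 2113, 2227 and 3109 genes in that order. Cyp1a2, Cyp2c29, Cyp2c67 and Cyp2a4 lost their calls without any single one of the 3 normal livers. Cyp1a2 was at -1.99 ± 0.64 (adjusted p = 0.0378) and Cyp2c67 at -1.64 ± 0.50 (adjusted p = 0.0324). Cyp1b1 was at 1.86 ± 0.33 (adjusted p = 0.00425), with all Hmgb1-deleted tumours above all normal livers, and kept its call in each fit without a library. Cyp2a22 was at 3.87 ± 0.95 (adjusted p = 0.0139) and Cyp2a4 at 8.06 ± 2.13 (adjusted p = 0.0183), with the levels given above.

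The members were also read by their place in the liver lobule. Of the 7 members listed as pericentral, 4 were higher in Hmgb1-deleted than in floxed tumours (Cyp2c29, Cyp2c37, Cyp2c50 and Cyp2c54) and 3 did not pass (Cyp1a2, Cyp2a5 and Cyp2e1). Against normal livers, 6 of the 7 were lower in floxed tumours, and in Hmgb1-deleted tumours 2 were lower (Cyp1a2 and Cyp2c29). Of 7 pericentral genes outside the families, 2 were higher in Hmgb1-deleted than in floxed tumours, Oat at 2.63 ± 0.69 and Rgn at 2.18 ± 0.51, and all 7 were lower in floxed tumours than in normal livers. The call of Oat ended without any single one of floxed tumours 1 to 5 or Hmgb1-deleted tumours 3, 4 and 6 (up to an adjusted p of 0.0893), and that of Rgn without floxed tumour 2 or Hmgb1-deleted tumour 4. The periportal member Cyp2f2 was higher too, while of 7 periportal genes outside the families none was called in Hmgb1-deleted against floxed tumours (edgeR; none higher and 1 lower at an unadjusted p under 0.05, and 1 lower with DESeq2). Glul, glutamine synthetase of the innermost pericentral cells, was at 145, 309 and 816 CPM in Hmgb1-deleted tumours, 58.5, 84.6 and 257 CPM in floxed tumours and 943, 931 and 1171 CPM in normal livers, with a log2 fold change of 1.65 ± 0.49 for Hmgb1-deleted over floxed tumours (adjusted p = 0.0574).

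The enzymes need haem and electrons. Of 8 genes of haem synthesis, 2 were higher in Hmgb1-deleted than in floxed tumours and 6 did not pass. Alas1, the first and rate-limiting step, was at 236, 529 and 1050.1 CPM in Hmgb1-deleted tumours, 65.3, 128 and 235 CPM in floxed tumours and 87.5, 498 and 192 CPM in normal livers. All Hmgb1-deleted tumours lay above all floxed tumours, by the narrow gap between tumour 2 of the first group (236 CPM) and tumour 6 of the second (235 CPM), and the normal livers spread over both groups. Alas1 was 4.28-fold higher, with an SE of 0.46 on the log2 scale (adjusted p = 0.0181). Cpox, a later step, was at 45.3, 63.8 and 97.5 CPM in Hmgb1-deleted tumours, 25.5, 30.8 and 44.1 CPM in floxed tumours and 225, 216 and 166 CPM in normal livers, with a log2 fold change of 1.07 ± 0.21 (adjusted p = 0.00997) and no overlap. In floxed tumours 5 of the 8 were lower than in normal livers and none was higher (edgeR). Without Hmgb1-deleted tumours 3, 4 and 6, Alas1 stood at 0.90 (adjusted p = 0.166) and Cpox at 0.66 (adjusted p = 0.0759).

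Of 5 electron donors and partners, 1 was higher in Hmgb1-deleted than in floxed tumours. This was Pgrmc1, a haem-binding partner of P450 enzymes, at 1086, 1565 and 2329 CPM in Hmgb1-deleted tumours, 520.3, 851 and 1095 CPM in floxed tumours and 1636, 1472 and 1939 CPM in normal livers, with a log2 fold change of 1.01 ± 0.26 (adjusted p = 0.0299). The groups overlapped through Hmgb1-deleted tumour 2 and floxed tumour 2, and the call ended without floxed tumour 1 or 3 or without Hmgb1-deleted tumour 3, 4 or 6, up to an adjusted p of 0.0716. Por, the reductase itself, was at 84.5, 135 and 311 CPM in Hmgb1-deleted tumours, 94.4, 109 and 292 CPM in floxed tumours and 174, 169.9 and 282 CPM in normal livers and passed in no comparison. Of 4 genes of haem breakdown none was called in Hmgb1-deleted against floxed tumours (edgeR; none at an unadjusted p under 0.05 and none with DESeq2). In Hmgb1-deleted tumours against normal livers 2 of the 4 were higher and 1 was lower. Hmox1, the stress-induced haem oxygenase, was at 0.96 ± 0.25 (adjusted p = 0.0177), the biliverdin reductase Blvrb at 0.86 ± 0.25 (adjusted p = 0.0249), and Hmox2, the constitutive haem oxygenase, at -0.52 ± 0.17 (adjusted p = 0.0392).

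Of 22 receptors and factors that control P450 genes, 2 were higher and 1 was lower in Hmgb1-deleted than in floxed tumours, and in floxed tumours 14 were lower and 3 higher than in normal livers. Nr1h4, the bile acid receptor FXR, was at 74.4, 101 and 161 CPM in Hmgb1-deleted tumours, 50.2, 61.9 and 76.2 CPM in floxed tumours and 151, 163 and 172 CPM in normal livers, a log2 fold change of 0.86 ± 0.20 (adjusted p = 0.0211) that was no longer called once Hmgb1-deleted tumour 4 was left out (adjusted p = 0.0558). Onecut1, a hepatocyte factor, was at 8.39, 9.44 and 19.4 CPM in Hmgb1-deleted tumours, 1.07, 3.29 and 5.33 CPM in floxed tumours and 3.01, 107 and 12.1 CPM in normal livers, with no overlap between tumour groups, a log2 fold change of 1.82 ± 0.35 (adjusted p = 0.00957) and normal livers that spread more widely than either group. It was still called without tumours 3, 4 and 6 (1.63, adjusted p = 0.0402), and was not called when all 15 libraries shared 1 fit. Nr1i3, which encodes CAR, was at 10.2, 44.1 and 187 CPM in Hmgb1-deleted tumours, 15.0, 20.2 and 41.8 CPM in floxed tumours and 166, 90.5 and 116 CPM in normal livers. Hmgb1-deleted tumours 3 and 4 were its highest tumours, as for Cyp2b10, and also for genes such as Cyp2e1, Alas1 and Oat. The log2 fold change of Nr1i3 was 1.49 ± 0.57 (adjusted p = 0.125). Nr1i2, which encodes PXR, was at 0.34 ± 0.20 (adjusted p = 0.318). Hnf4a, whose core sequence is marked in the Cyp2c windows above, was at 410.4, 618 and 885 CPM in Hmgb1-deleted tumours, 349.6, 559 and 994 CPM in floxed tumours and 854, 799 and 640.5 CPM in normal livers and passed in no comparison.

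Genes that share inducers with the families were read beside them. Of 6 other CAR and PXR targets none was called in Hmgb1-deleted against floxed tumours (edgeR; 2 higher at an unadjusted p under 0.05 and 2 higher with DESeq2), and 4 were lower and 1 higher in floxed tumours than in normal livers. Ces2a, a carboxylesterase, was at 47.9, 107 and 325 CPM in Hmgb1-deleted tumours, 35.8, 64.0 and 101 CPM in floxed tumours and 339, 397 and 399 CPM in normal livers. Tumours 3 and 4 were again the highest of the Hmgb1-deleted group, an order also seen for genes such as Alas1 and Oat. Of 4 other targets of the aryl hydrocarbon receptor 2 were tested. Nqo1, a quinone reductase, was higher in both tumour groups than in normal livers, at 3.44 ± 0.46 in Hmgb1-deleted and 3.29 ± 0.47 in floxed tumours, and Tiparp passed in no comparison.

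**Figure D5:**
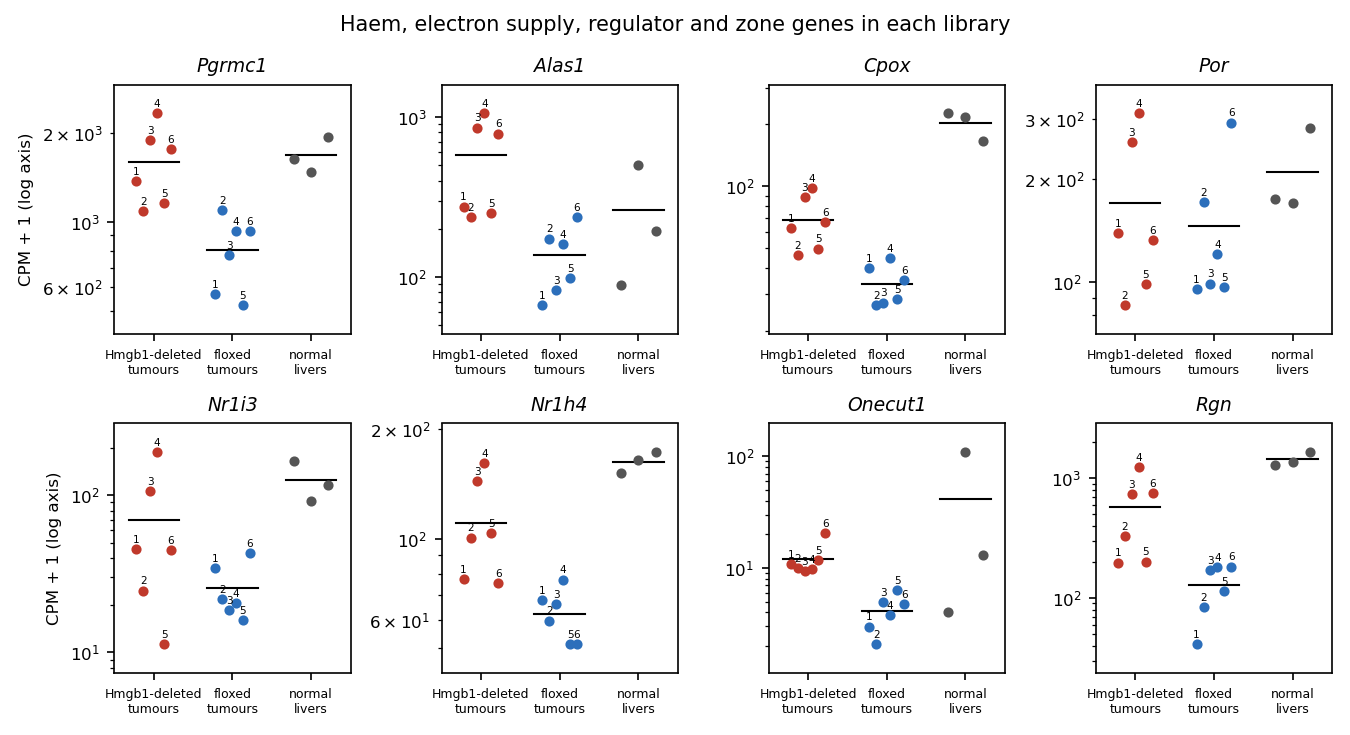
Level of 8 genes outside the families (haem synthesis, electron supply, regulators and the pericentral gene Rgn) as CPM + 1 on a log axis, with 1 point per library (tumours numbered) and a bar at the mean. Alas1, Cpox, Onecut1 and Rgn show no overlap between Hmgb1-deleted and floxed tumours; for Alas1 and Onecut1 the normal livers spread across both.

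Markers of the cells in the samples were read beside these levels. All 6 hepatocyte markers were expressed, with a summed level of 68121 to 167964 CPM in Hmgb1-deleted tumours, 107380.0 to 279611 CPM in floxed tumours and 101390.0 to 129528 CPM in normal livers. Hmgb1-deleted tumours 2 and 5 had the lowest sums of all libraries, and Alb made most of each sum. Apoa1 and Serpina1a were also lowest of all libraries in Hmgb1-deleted tumour 5, while Fah was lowest in floxed tumour 5 (264 CPM). None of the 6 was called between the tumour groups (edgeR; none higher and 3 lower at an unadjusted p under 0.05, and 3 lower with DESeq2). The 5 cholangiocyte markers summed to 205 to 6104 CPM in Hmgb1-deleted tumours, 60.3 to 1765 CPM in floxed tumours and 67.2 to 78.8 CPM in normal livers. Hmgb1-deleted tumour 2 had the highest sum, and tumours 4 and 3, with high member levels, had the lowest sums of their group. That order was mostly set by Spp1, at 6024 CPM in tumour 2 and 195 CPM in tumour 4. Within the group, Sox9 was also highest in tumour 2 and lowest in tumour 4. Krt19 was instead highest in tumour 4 (2.53 CPM) and lowest in tumour 5 (0.597 CPM), and Krt7 was also lowest in tumour 5. The 6 stellate and myofibroblast markers summed to 94.7 to 345 CPM in Hmgb1-deleted tumours, 121 to 1128 CPM in floxed tumours and 87.4 to 113 CPM in normal livers, and floxed tumour 5, where Cyp1b1 was highest, was the highest library.

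Of the 5 cholangiocyte, 6 stellate and myofibroblast, 5 endothelial, 6 macrophage and 5 lymphocyte markers none was called between Hmgb1-deleted and floxed tumours (edgeR; 1 endothelial marker was lower at an unadjusted p under 0.05, and none with DESeq2). Of the neutrophil markers 2 were tested and none was called, with 1 lower at an unadjusted p under 0.05 and none with DESeq2 (edgeR for the calls). The macrophage list summed to 305 to 460 CPM in Hmgb1-deleted tumours, 184 to 598 CPM in floxed tumours and 203 to 301 CPM in normal livers. The endothelial list summed to 82.2 to 205 CPM, 128 to 316 CPM and 122.5 to 206 CPM in the same order of groups. Lung and kidney markers summed to at most 0.377 CPM in any library. The pancreas and gut list had 2 genes at 0 in all libraries, and its sum of 7.73 to 34.2 CPM in Hmgb1-deleted tumours, 37.8 to 92.8 CPM in floxed tumours and 34.4 to 41.7 CPM in normal livers came with a lower call for Cela1, which ended without floxed tumour 1, 2 or 3 or Hmgb1-deleted tumour 4. The part of cell composition in the member levels was not tested.

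The members that could not be compared were also counted. Across the 3 comparisons 14 of the 62 were tested in none, and 5 of these had 0 counts in all 15 libraries: Cyp2j11, Cyp2j12, Cyp2j13, Cyp2w1 and Cyp3a41b. The others, among them Cyp2b19, Cyp2b23, Cyp2c65, Cyp2c66, Cyp2d34 and Cyp2t4, did not exceed 1 CPM in any library, except Cyp3a16. In the GENCODE M21 annotation, 60 of the 62 members were found, and 27 of them had at least 10% of their 50-base stretches in another gene, while 7 shared none. The highest shares among tested members were 60.3% for Cyp2c40, 54.3% for Cyp2c69, 52.8% for Cyp2c67 and 43.3% for Cyp2c68. In the Cyp2d subfamily, Cyp2d10 and Cyp2d11 shared 35.8% and 37.2%, so that their values, like those of Cyp2a4 and Cyp2a5, are uncertain where the counting dropped or split reads with several matches. Cyp2j9, Cyp2r1, Cyp2c70, Cyp1b1 and Cyp3a13 shared none, and Cyp2j5 shared 0.174%.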

How the data were processed

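RNA was measured by poly-A selected TruSeq sequencing of 12 tumours and 3 normal livers, per the labels' protocols. The deposited values are whole-number counts of reads per gene, made by the authors; the submitters' processing notes name bcl2fastq 1.8.4, TopHat2 2.1.0, Bowtie2 2.2.4, HTSeq 0.6.1 and the genome build mm9. Annotation, strandedness and the handling of multiply matching reads were not given in the sources used here. They bear on near-identical Cyp2a, Cyp2c, Cyp2d and Cyp3a genes, and on Cyp2b genes that share sequence. Groups follow the samples' labels. Total counts per library ran from 18973246 to 30929442.

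Each comparison used edgeR 4.0.16 (filterByExpr, TMM scaling, robust quasi-likelihood test; R 4.3.3, limma 3.58.1) over all genes of its 2 groups, with Benjamini-Hochberg adjusted p under 0.05. DESeq2 1.42.0, other scalings and filters, a replicate block, 1 fit of all 15 libraries and fits without each library were alternatives, and leaving out Hmgb1-deleted tumours 3, 4 and 6, or 2 and 5, was added after seeing the data. Hmgb1 was tested by exact permutation on log2(CPM + 1). The scripts were tested on simulated data. No pair of libraries within a group agreed within counting noise (chi-square over degrees of freedom at least 26.3). The members and gene lists were chosen with earlier results of these data known. Genes named are members, and outside the families Hmgb1, genes of the lists called between tumour groups, and a few others of each list with the smallest p or singled out for their known role. Shared sequence was counted as 50-base stretches of GENCODE M21 transcripts found in another gene. Tables and figures were made with Python 3.11.15 (pandas 2.3.3, matplotlib 3.10.9), and promoter windows were aligned with Biopython 1.88.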

Additional observations from a re-analysis of the deposited data

Results flagged for a closer look

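In 14 of 92 combinations of a member and a tumour group, 1 tumour lay apart from the other 5, with a gap to its neighbour past Dixon's 95% critical share of the group's range on the log2(CPM + 1) scale. A few such tumours arise by chance in any set of this size.

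In the Hmgb1-deleted group this was found for Cyp2b13, which was at 8.53 CPM in tumour 6. In the floxed group, tumour 5 stood apart for 7 genes. It was the lowest for Cyp2a12 at 216 CPM, Cyp2c70 at 159 CPM, Cyp2d10 at 168 CPM, Cyp2r1 at 5.06 CPM and Cyp3a13 at 66.5 CPM. It was the highest for Cyp1b1 at 8.15 CPM and Cyp2s1 at 4.11 CPM, which are made mostly outside hepatocytes. The stellate and myofibroblast markers also summed highest in that tumour, at 1128 CPM, and their part in these levels was not tested.

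Floxed tumour 1 was the lowest of its group for Cyp2b9 at 1.39 CPM and Cyp2c29 at 28.9 CPM. Floxed tumour 3 was the highest for Cyp2b10 at 1.74 CPM and for Cyp2c53-ps at 0.0544 CPM, where a single count made the difference. Floxed tumour 6 was the highest for Cyp2c39 at 20.8 CPM and the lowest for Cyp2c55 at 0.596 CPM.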

How the results depend on the processing

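Between Hmgb1-deleted and floxed tumours, Cyp2c37, Cyp2c38, Cyp2c50, Cyp2c54 and Cyp2f2 were called under all 20 alternatives other than leaving out several tumours, and Cyp2c29 under all but the replicate block. The 9 members called became 14 without a scaling factor, 18 with DESeq2, 15 without Hmgb1-deleted tumours 2 and 5, and 5 without tumours 3, 4 and 6, and 6 to 13 when each library was left out in turn. The 1045 genes called over the whole table became 1954 with DESeq2, 1629 with all 15 libraries in 1 fit and 589 to 1054 without single libraries, the lowest without Hmgb1-deleted tumour 4.

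In floxed tumours against normal livers, 28 to 31 members and 4860.0 to 6966 genes were called without single libraries. In Hmgb1-deleted tumours against normal livers, the 11 members called became 23 with DESeq2 and 32 without tumours 3, 4 and 6. Without single libraries 5 to 21 were called, the most without Hmgb1-deleted tumour 4 and the fewest without normal liver 1 or 2. Over the whole table, the 4787 genes called became 5849 with DESeq2, 6462 without tumours 3, 4 and 6, and 2113 to 4912 without single libraries. Without tumours 3, 4 and 6, Cyp2d22 turned to -0.86 against floxed tumours and Cyp3a59 to -0.87 against normal livers, and the cause was not tested.

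Tumours with the same replicate number did not deviate together (correlations of -0.202 to 0.178), so the numbers were not taken as a pairing. With a replicate block, 10 members and 860.0 genes were called between tumour groups, and Cyp2c29 missed the threshold (adjusted p = 0.0605). On numbers 1 to 3, the replicate block called 29 members (30 without it) in floxed tumours and 17 members (16 without it) and 3055 genes (3679 without it) in Hmgb1-deleted tumours, each against normal livers.

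Scaling moved directions over all genes. Higher and lower calls were 598 and 447 with TMM between tumour groups, and 982 and 257 without a factor, where the median log2 fold change was 0.20 in place of 0.02. For floxed tumours against normal livers they were 3437 and 3277 with TMM and 4363 and 2509 with upper-quartile scaling. For Hmgb1-deleted tumours against normal livers they were 2492 and 2295 with TMM, 3390.0 and 1578 with upper-quartile scaling, and 2969 and 1062 without a factor, and the members' split of 3 and 8 became 5 and 8 with each. Members at a few counts, such as Cyp2d12 and Cyp2g1, are limited by depth.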
